A study of Mus musculus with 15 samples.

Results

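Polycomb repressive complex 2 (PRC2) is the enzyme complex that places methyl groups on lysine 27 of histone H3. Here 9 genes were followed through the germinal centre reaction of the mouse. PRC2 supplied the alternative catalytic subunits Ezh2 and Ezh1, the core partners Eed, Suz12 and Rbbp4, and the accessory subunits Mtf2, Phf19 and Jarid2. The other gene was Kdm6b, a demethylase outside PRC2 that removes the same mark. The 9 genes were taken by symbol from the 23420 genes of the deposited expression table. All 9 were found and passed the filter on low values.

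The libraries were made from 100 sorted cells each, 3 per group, from draining lymph nodes on day 12 after immunization of C57BL6 mice with NP-CGG in CFA. The mice had received CD45.1+ donor B cells that carry the B1-8hi (KI/+) antigen receptor gene, a knock-in that lets B cells recognise NP, in all 5 groups. For the 4 germinal centre groups the donor cells also carried Bcl6-YFP (KI/+), a reporter of the transcription factor that maintains germinal centre B cells. Dark zone cells (DZ) were B220+ CD38lo GL7hi CXCR4hi CD86lo. Light zone cells were CXCR4lo CD86hi and were split into Fraction 3 (CD69lo Bcl6hi), Fraction 2 (CD69hi Bcl6hi) and Fraction 1 (CD69hi Bcl6lo). Plasmablasts derived from the germinal centre (GC-PB) were CD138hi CD44hi tdTomato+. Their donor cells carried B1-8hi (KI/+), S1pr2-ERT2cre Tg and ROSA-Ai14 (KI/+), and tamoxifen was given on days 6, 7 and 8. The tdTomato label thus marks only cells in which the S1pr2 promoter was active at that time and their descendants. GC-PB thus differ from the other groups in donor genotype and tamoxifen as well as in cell state. Replicates are described as independent library preparations, and how many mice they came from is not stated, so p-values measure the spread between libraries, which may be technical.

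Values are given at equal library totals, without a length correction, so a gene is compared between groups and not with another gene. Deposited totals were 65535 to 115088 in Fraction 1 and GC-PB and 27942 to 41955 in the other groups. Most values in a library were whole multiples of 1 constant, read here as 1 estimated molecule, and the libraries held 184103 to 376991 of these. One divide bears on the comparisons. The 6 Fraction 1 and GC-PB libraries held Xist, a transcript of female cells (8.94 to 14.4), whereas the 9 other libraries listed Xist at 0 and held the Y-linked Ddx3y (3.91 to 6.21). Constants were 0.305 to 0.362 in the former and 0.105 to 0.139 in the latter. Fraction 1 against Fraction 2 and GC-PB against DZ cross this divide, where cell state, sex of the cells and the scaling cannot be told apart. The other comparisons lie on one side of it. Of the genes used in the gates, Bcl6 was 13.8 to 22.0 in the Bcl6hi groups and DZ, 2.82 to 4.80 in Fraction 1 and 0 in GC-PB, where Sdc1, which encodes CD138, reached 11.4 to 15.8. Cd69, whose protein separates Fraction 3 from Fractions 2 and 1, overlapped between them (1.59 to 2.47, 2.29 to 3.92 and 1.65 to 3.22). The T cell genes Cd3e and Cd4 and the macrophage gene Mertk were listed at 0 in every library. The T cell list, with 3 of 9 genes detected in GC-PB, summed to 9.71 to 11.4 there, nearly all from Cd28, and to 1.59 to 5.88 elsewhere. The macrophage and dendritic cell list summed to 0.931 to 4.38, mostly from Flt3 and highest in Fraction 3. Summed neutrophil, stromal and erythroid lists stayed at or under 0.123, 1.38 and 1.06.

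PRC2 silences genes by methylating their nucleosomes. Ezh2 or Ezh1 supplies the methyltransferase, Eed reads the finished mark and stimulates the enzyme, Suz12 holds the subunits together and Rbbp4 is a histone-binding chaperone shared with other chromatin complexes. Accessory proteins form alternative versions of the complex: one carries a Polycomb-like protein such as Mtf2 or Phf19, the other carries Jarid2 with Aebp2. In the germinal centre Ezh2 is known to be abundant, to be needed for the reaction, and to repress cell cycle inhibitors and plasma cell genes.

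Promoters are shown for 2 pairs of members whose levels ran closest together over the 15 libraries, Ezh2 with Eed (Pearson r = 0.97) and Mtf2 with Phf19 (r = 0.98). These correlations are descriptions over libraries that share 5 groups. Each sequence is the RefSeq window of 300 bases on GRCm38.p6, from 250 before to 50 after the start site, 5′ to 3′ on the gene's strand. Capitals mark 2 kinds of letter pattern, found on either strand. One is the CCAAT box, a common promoter element, and the other is the E2F words TTTCCCGC, TTTCGCGC, TTTGCCGC and TTTGGCGC, recognised by E2F cell cycle factors.

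Ezh2 promoter, chr6:47594981-47595280, minus strand: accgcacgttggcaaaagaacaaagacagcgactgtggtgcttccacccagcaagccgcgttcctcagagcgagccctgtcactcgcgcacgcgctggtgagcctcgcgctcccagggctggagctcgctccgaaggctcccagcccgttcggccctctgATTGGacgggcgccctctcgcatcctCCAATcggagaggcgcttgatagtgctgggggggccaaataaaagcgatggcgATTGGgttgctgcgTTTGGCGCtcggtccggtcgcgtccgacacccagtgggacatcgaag
Eed promoter, chr7:89980927-89981226, minus strand: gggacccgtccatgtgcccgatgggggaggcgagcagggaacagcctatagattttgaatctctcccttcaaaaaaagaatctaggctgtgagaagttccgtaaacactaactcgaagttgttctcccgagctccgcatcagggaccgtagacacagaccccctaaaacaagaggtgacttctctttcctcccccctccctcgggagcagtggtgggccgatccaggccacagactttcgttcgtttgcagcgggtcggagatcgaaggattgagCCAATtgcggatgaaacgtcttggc
Mtf2 promoter, chr5:108065424-108065723, plus strand: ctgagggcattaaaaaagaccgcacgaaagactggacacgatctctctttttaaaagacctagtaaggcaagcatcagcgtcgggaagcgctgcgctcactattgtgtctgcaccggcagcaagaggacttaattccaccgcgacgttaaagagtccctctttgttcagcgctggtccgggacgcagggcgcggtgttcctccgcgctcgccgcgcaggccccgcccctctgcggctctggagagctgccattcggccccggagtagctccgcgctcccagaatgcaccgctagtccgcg
Phf19 promoter, chr2:34913927-34914226, minus strand: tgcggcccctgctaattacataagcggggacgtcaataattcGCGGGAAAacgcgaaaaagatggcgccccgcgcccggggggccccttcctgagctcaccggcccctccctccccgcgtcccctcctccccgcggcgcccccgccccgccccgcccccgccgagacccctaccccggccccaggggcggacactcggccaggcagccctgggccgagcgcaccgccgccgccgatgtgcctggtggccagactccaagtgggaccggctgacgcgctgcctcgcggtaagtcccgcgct

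The Ezh2 window held TTTGGCGC 4 bases into the transcript and 3 CCAAT boxes before the start. The Phf19 window held TTTCCCGC on the opposite strand at -208 and no CCAAT box. The Eed window held 1 CCAAT box inside the transcript and no E2F word. The Mtf2 window at its annotated gene start held neither pattern, and a second Mtf2 start in RefSeq, not shown, held 3 CCAAT boxes and no E2F word. Of the 8 members with a RefSeq promoter entry, 3 held an E2F word (Ezh2, Phf19 and Suz12, the last at -219), and 6 held CCAAT. Among all 32841 promoter windows of this length, 2.27% held an E2F word and 37.4% held CCAAT. These shares are per window, whereas a member with more than 1 window, such as Mtf2, was counted if any of them matched. A match describes the letters only and is not a bound site.

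**Figure D1:**
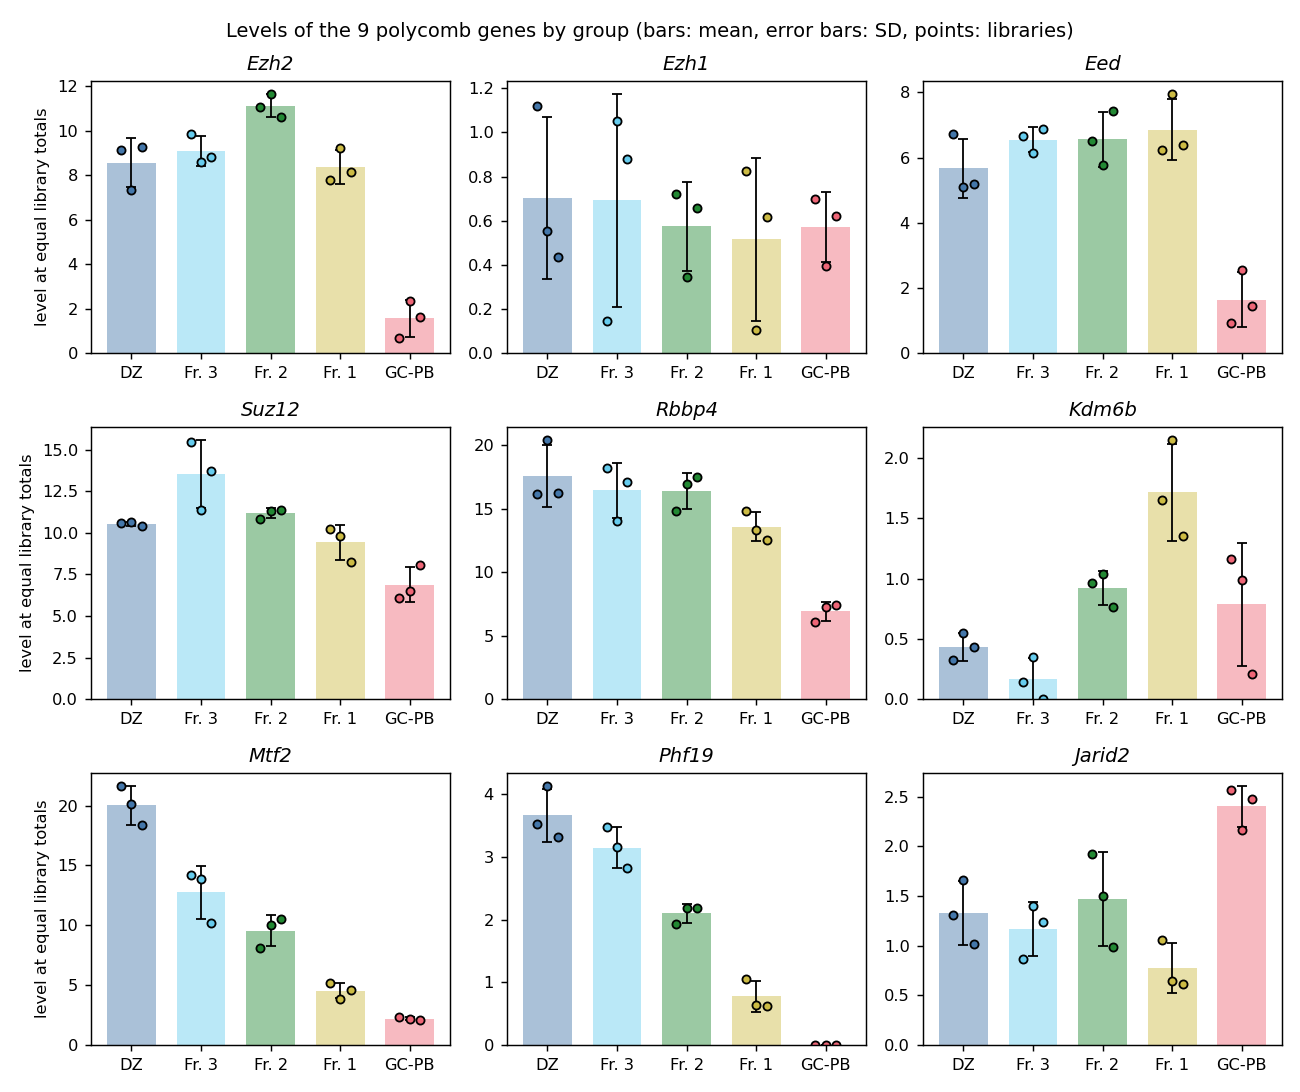
Level at equal library totals (vertical axes, deposited units, starting at 0) of the 9 genes in dark zone cells (DZ), light zone Fractions 3, 2 and 1 (Fr. 3, Fr. 2, Fr. 1) and plasmablasts (GC-PB); bars are means, error bars SD and points the 3 libraries. Ezh2 and Eed lie lower in GC-PB than in the other groups, Mtf2 and Phf19 step down from DZ onwards, and Jarid2 is highest in GC-PB.

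Across the 5 groups, 8 of the 9 genes differed by the moderated F test of limma with Benjamini-Hochberg adjustment over all 11190 genes tested. The test called 45.3% of all tested genes. Ezh1 alone was not called (adjusted p = 0.964). No difference of a core subunit between germinal centre groups was called at equal totals in the comparisons made, and all 4 core subunits were lower in GC-PB. At equal totals the Polycomb-like subunits Mtf2 and Phf19 had their highest mean in DZ. Their means were lower in turn in Fraction 3, Fraction 2, Fraction 1 and GC-PB, groups all sorted on day 12. As deposited neither fell at each step: Mtf2 averaged 9.54 in Fraction 2 and 12.4 in Fraction 1, and Phf19 2.10 and 2.12. Jarid2 had its lowest mean in Fraction 1 and its highest in GC-PB, and Kdm6b was highest in Fraction 1.

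The catalytic subunit Ezh2 (mm10 chr6:47530139-47595341) measured 9.13, 7.31 and 9.26 in the DZ libraries, 9.84, 8.59 and 8.80 in Fraction 3, and 11.1, 11.6 and 10.6 in Fraction 2. Fraction 1 held 7.77, 9.24 and 8.13. GC-PB held 0.699, 2.36 and 1.65, which were 3, 12 and 8 estimated molecules. All 3 plasmablast libraries lay below all 12 germinal centre libraries, and the Fraction 2 libraries lay above those of every other group. Ezh2 fell from 8.38 ± 0.771 in Fraction 1 to 1.57 ± 0.836 in GC-PB (SD, n = 3 each), a 5.33-fold lower mean. On the log2(level + 1) scale the difference was -1.92 ± 0.18 (SE, adjusted p = 3.33e-08). Against DZ it was -1.94 (adjusted p = 2.74e-08). The 1.30-fold higher mean in Fraction 2 than in DZ was not called (log2 difference 0.35, adjusted p = 0.412), nor was the difference between Fraction 1 and Fraction 2 (-0.37, adjusted p = 0.254). The last of these depended on the scale, since in the values as deposited Ezh2 was higher in Fraction 1 (0.98, adjusted p = 0.00204). In libraries of 100 cells, fewer cells that express a gene and less of its RNA per cell cannot be told apart.

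Eed (mm10 chr7:89954654-89980983), the subunit that reads the mark, followed Ezh2. Its levels were 6.73, 5.11 and 5.21 in DZ, 6.66, 6.13 and 6.87 in Fraction 3, 6.50, 5.77 and 7.44 in Fraction 2 and 6.24, 7.95 and 6.40 in Fraction 1. In GC-PB they were 0.931, 2.56 and 1.45, from 4, 13 and 7 estimated molecules. The 4 germinal centre groups overlapped, and the plasmablast libraries lay below all of them. The mean was 4.17-fold lower in GC-PB than in Fraction 1 (log2 difference -1.61 ± 0.19, adjusted p = 5.33e-07). The second plasmablast library had the most Ezh2 and the most Eed of the 3, and the first had the least of both.

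Suz12 (mm10 chr11:79993106-80034123), the scaffold, changed least among the called core subunits. It measured 10.6, 10.6 and 10.4 in DZ, 15.5, 11.4 and 13.7 in Fraction 3, 10.8, 11.3 and 11.4 in Fraction 2, 10.2, 9.78 and 8.25 in Fraction 1, and 6.05, 6.50 and 8.06 in GC-PB. The plasmablast libraries lay just under those of Fraction 1. Suz12 was 1.37-fold lower in GC-PB than in Fraction 1 (log2 difference -0.41 ± 0.13, adjusted p = 0.0205). This call was lost when libraries were scaled by median ratios (-0.15, adjusted p = 0.423) and without Fraction 1 replicate 1 or 2 or GC-PB replicate 1 or 2 (adjusted p = 0.0526 to 0.0879). Fraction 3 libraries lay above DZ for Suz12, but the difference was not called (0.32, adjusted p = 0.382).

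Rbbp4 (mm10 chr4:129307100-129335370) measured 16.2, 20.4 and 16.2 in DZ, 18.2, 14.02 and 17.1 in Fraction 3, 14.8, 17.0 and 17.5 in Fraction 2, and 14.8, 13.3 and 12.6 in Fraction 1. In GC-PB it measured 6.05, 7.29 and 7.44, below every germinal centre library. Its mean was 1.96-fold lower than in Fraction 1 (log2 difference -0.88 ± 0.13, adjusted p = 1.59e-05). Its close relative Rbbp7, which can take its place in PRC2, fell more, from 17.0 to 4.68 (-1.69, adjusted p = 6.86e-09).

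Ezh1 (mm10 chr11:101191115-101226463), the catalytic subunit known from resting cells, gave only 1 to 7 estimated molecules per library. Its group means ran from 0.516 in Fraction 1 to 0.702 in DZ, and the libraries of all groups overlapped. Between GC-PB and Fraction 1 the log2 difference was 0.08 (adjusted p = 0.839). At this depth a change of Ezh1 was not detectable. Ezh2 fell in GC-PB without a detectable rise of Ezh1.

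Because each library scales all its genes alike, ratios of members within a library do not depend on the scale. Ezh2 was 0.636 to 1.03 times Suz12 in the 12 germinal centre libraries and 0.115 to 0.364 times in the plasmablasts. For Eed the ratio to Suz12 was 0.430 to 0.813 in the former and 0.154 to 0.394 in the latter. The Ezh2 and Eed messages were thus lower in GC-PB relative to the scaffold of the same complex in every library. The fall of Ezh2, Eed and Rbbp4 against Fraction 1 was also called under each other scaling, in the deposited values with log2 differences of -2.78, -2.44 and -1.59.

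**Figure D2:**
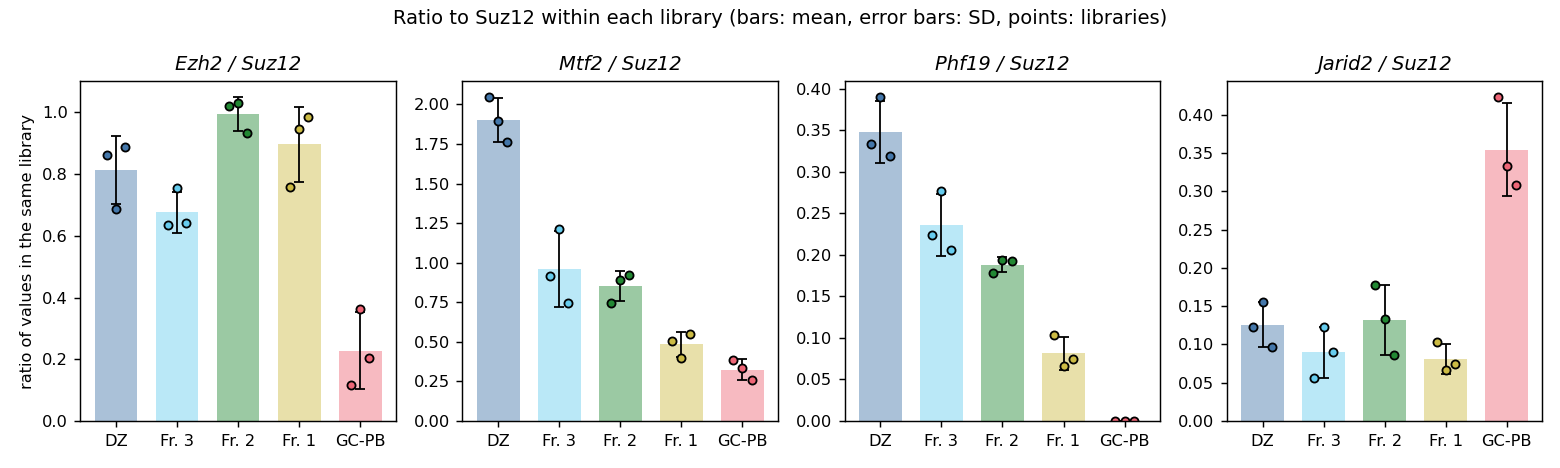
Ratio of the deposited value of Ezh2, Mtf2, Phf19 or Jarid2 to that of Suz12 in the same library (vertical axes start at 0), by group; bars are means, error bars SD and points the 3 libraries. The Ezh2 ratio is at most 0.364 in GC-PB, the Mtf2 and Phf19 ratios are highest in DZ, and the Jarid2 ratio is highest in GC-PB.

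Mtf2 (mm10 chr5:108065674-108109004), a Polycomb-like protein that brings PRC2 to unmethylated CpG-rich DNA, had the steadiest decline. It measured 21.6, 20.1 and 18.4 in DZ, 14.2, 13.8 and 10.2 in Fraction 3, and 8.07, 10.03 and 10.5 in Fraction 2. Fraction 1 held 5.18, 3.87 and 4.56, and GC-PB held 2.33, 2.17 and 2.07. Groups did not overlap except Fraction 3 and Fraction 2. Between DZ and GC-PB the mean was 9.17-fold lower (log2 difference -2.72 ± 0.15, adjusted p = 4.96e-12; as deposited -1.83).

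Mtf2 was the one member called between Fraction 3 and DZ (log2 difference -0.63 ± 0.15, adjusted p = 0.0419), where 0.483% of all tested genes were called lower. That call was at the edge: the adjusted p was 0.112 in the deposited values, 0.0532 with median ratios and 0.0626 with the replicate number as a block. It was also lost without any single DZ library (0.0825 to 0.172) and without Fraction 3 replicate 2 (0.0747) or 3 (0.268). Against DZ, Fraction 2 was 2.10-fold lower (-1.003 ± 0.15, adjusted p = 0.000251), again the one member among 9 in a comparison that called 1.84% of all genes lower. Both comparisons lie on the Ddx3y side of the divide. Fraction 2 against DZ was also called as deposited (-0.68, adjusted p = 0.0284).

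From Fraction 2 to Fraction 1, Mtf2 was 2.10-fold lower at equal totals (-0.93 ± 0.15, adjusted p = 0.000365), but as deposited it was not (0.35, adjusted p = 0.0788), and the groups lie on different sides of the divide. Between Fraction 1 and GC-PB, on one side of the divide, it fell 2.07-fold (-0.79 ± 0.15, adjusted p = 0.000195; as deposited -1.51). Relative to Suz12 in the same library, Mtf2 went from 1.76 to 2.05 in DZ to 0.744 to 1.22 in Fraction 3, 0.744 to 0.923 in Fraction 2, 0.396 to 0.552 in Fraction 1 and 0.256 to 0.385 in GC-PB. The order of the group means was the same for this ratio as at equal totals. Relative to Ezh2 it was not: that ratio was 1.98 to 2.75 in DZ, 0.419 to 0.667 in Fraction 1 and 0.917 to 3.33 in GC-PB. The deposited means of Mtf2 also had another order, with 15.9 in DZ, 9.49 in Fraction 3, 9.54 in Fraction 2, 12.4 in Fraction 1 and 3.70 in GC-PB.

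Phf19 (mm10 chr2:34893757-34914026), the other Polycomb-like subunit, measured 3.52, 4.14 and 3.33 in DZ, 3.47, 3.15 and 2.82 in Fraction 3, and 1.93, 2.19 and 2.19 in Fraction 2. It measured 1.06, 0.645 and 0.616 in Fraction 1, from 9, 6 and 5 estimated molecules, and was listed at 0 in all 3 plasmablast libraries. From Fraction 3 onwards no group overlapped the next. Against a floor of 3 molecules over the group, Phf19 was at least 17.4-fold lower in GC-PB than in DZ and at least 3.65-fold lower than in Fraction 1. The fitted log2 difference between GC-PB and Fraction 1 was called (adjusted p = 0.000933). Fraction 1 was 2.72-fold lower than Fraction 2 at equal totals (-0.81 ± 0.18, adjusted p = 0.0056), and the deposited values of these groups did not differ detectably (-0.01, adjusted p = 0.98). The difference between Fraction 2 and DZ missed the threshold (-0.59, adjusted p = 0.0785).

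Jarid2 (mm10 chr13:44729474-44921643), which defines the other version of the complex, measured 1.30, 1.66 and 1.01 in DZ, 0.868, 1.40 and 1.23 in Fraction 3, 1.93, 1.499 and 0.985 in Fraction 2, and 1.06, 0.645 and 0.616 in Fraction 1. In GC-PB it measured 2.56, 2.17 and 2.48, above every germinal centre library. Jarid2 rose 3.11-fold from Fraction 1 to GC-PB (log2 difference 0.95 ± 0.20, adjusted p = 0.000805), and as deposited by 0.72. These are small counts, 5 to 9 estimated molecules per library in Fraction 1, the same numbers as Phf19 there, and 11 or 12 in GC-PB. Against DZ the rise was 0.56 (adjusted p = 0.0376), lost without DZ replicate 1 or 3 or GC-PB replicate 1 or 3 (adjusted p = 0.0764 to 0.136). Jarid2 was 0.0561 to 0.178 times Suz12 in the germinal centre libraries and 0.308 to 0.423 times in the plasmablasts.

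Of the summed value of the 3 accessory genes, Jarid2 made up 4.46% to 16.2% in each germinal centre library and 50% to 54.5% in the plasmablasts. Mtf2 went from a mean of 80.1% in DZ to 47.7% in GC-PB. These shares rest on 21 or 22 estimated molecules per plasmablast library and 47.0 to 188 per germinal centre library. Lower Mtf2 and Phf19 alone raise the share of Jarid2. Without a length correction, the shares are compared between groups and do not give the make-up of the complex. Aebp2, the partner of Jarid2, did not move with it: it was 1.72 in DZ, 2.14 in Fraction 3, 3.41 in Fraction 2, 7.60 in Fraction 1 and 1.51 in GC-PB. Aebp2 rose from DZ to Fraction 2 (0.69, adjusted p = 0.0421) and from Fraction 2 to Fraction 1 (0.96, adjusted p = 0.00218). The first of these was lost with median ratios (adjusted p = 0.0657). The second crosses the divide, where cell state, sex of the cells and the scaling cannot be told apart. Aebp2 fell to GC-PB (-1.80, adjusted p = 1.11e-07), where Jarid2 rose.

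The demethylase Kdm6b (mm10 chr11:69398508-69413675) measured 0.320, 0.552 and 0.434 in DZ, and 0.145, 0.350 and 0 in Fraction 3. It measured 0.963, 1.04 and 0.766 in Fraction 2, 1.65, 2.15 and 1.35 in Fraction 1, and 1.16, 0.985 and 0.207 in GC-PB. The Fraction 1 libraries, with 14, 20 and 11 estimated molecules, lay above all the others, while Fraction 3 had 1, 2 and 0. Kdm6b fell from Fraction 1 to GC-PB (-0.64 ± 0.22, adjusted p = 0.0262). That call was lost with median ratios (adjusted p = 0.0927) and without Fraction 1 replicate 1, Fraction 1 replicate 2 or GC-PB replicate 3 (0.0517, 0.107 and 0.191), the last moving the log2 difference to -0.38. Fraction 2 and Fraction 3 did not overlap (0.73, adjusted p = 0.152), nor did Fraction 1 and Fraction 2 (0.49, adjusted p = 0.195), and neither difference was called at equal totals. As deposited, Fraction 1 was called above Fraction 2 (1.56, adjusted p = 6.62e-05).

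The other H3K27 demethylase, Kdm6a, which is X-linked, was 0.846 to 1.59 on average in DZ, Fraction 3 and Fraction 2 and 2.20 and 2.54 in Fraction 1 and GC-PB. Its rise from Fraction 2 to Fraction 1 (0.81, adjusted p = 0.0173) follows the Xist divide, and cell state and sex cannot be told apart for it. Its Y-linked copy Uty averaged 0.487 to 0.626 in the groups with Ddx3y.

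**Figure D3:**
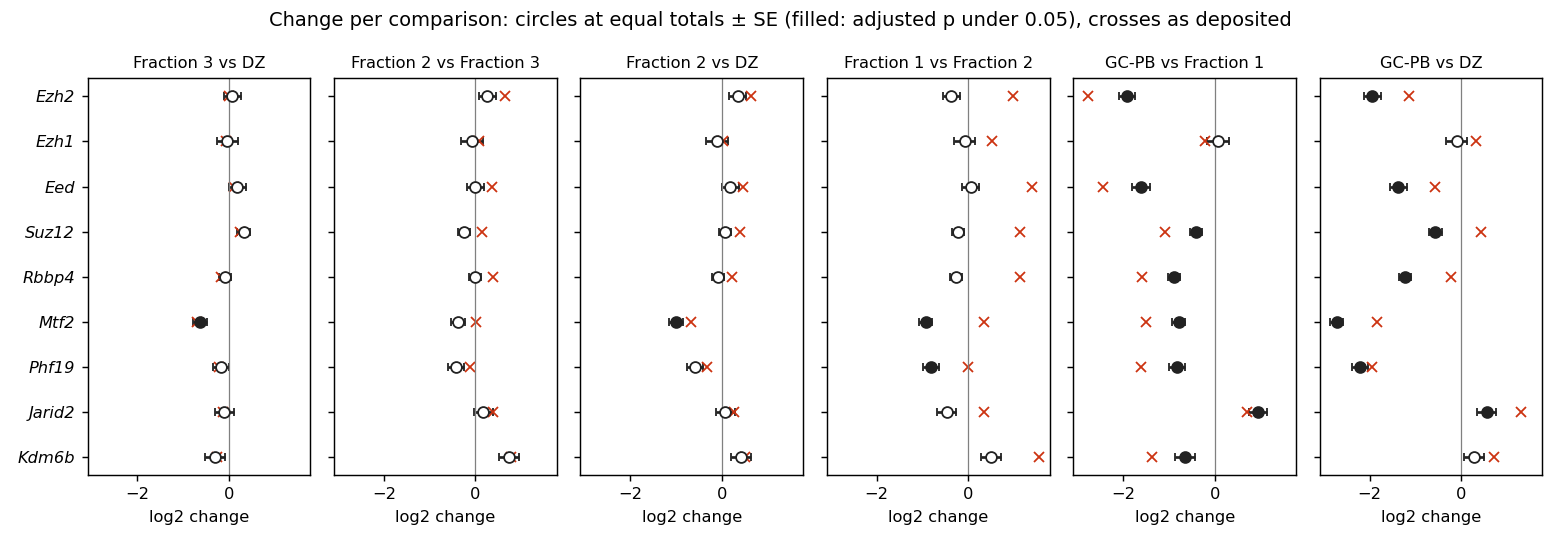
Change of each gene in the 6 comparisons (horizontal axis, log2 of level + 1, first group minus second). Circles with SE bars are values at equal totals, filled where the limma adjusted p is under 0.05, and crosses are the deposited values. For GC-PB against Fraction 1, circles and crosses lie on the same side of 0 for every gene except Ezh1, whereas for Fraction 1 against Fraction 2 most lie on opposite sides.

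By comparison, 1 member was called between Fraction 3 and DZ, none between Fraction 2 and Fraction 3 (0.688% of all genes called), 1 between Fraction 2 and DZ and 2 lower between Fraction 1 and Fraction 2 (5.25% of all genes called lower). In Fraction 2 against Fraction 3 no member passed limma's threshold in the deposited values or with median ratios, and Kdm6b passed when those groups were fitted alone (adjusted p = 0.0482). Between GC-PB and Fraction 1 the test called 7 members lower and 1 higher, where 22.3% of all tested genes were called lower and 14.1% higher. Between GC-PB and DZ it called 6 lower and 1 higher (23.3% and 12.6%). The median log2 difference of the 9 members was -0.79 against Fraction 1 and -1.23 against DZ, beside -0.06 and -0.10 over all tested genes. As deposited these medians were -1.51 and -0.22, beside -0.42 and 0.25 over all tested genes. GC-PB is in both comparisons, so they do not count as separate evidence.

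The scale mattered across the divide. As deposited, the median over all tested genes was 0.64 between Fraction 1 and Fraction 2, and 5 members were called higher and none lower there. With GC-PB against DZ as deposited, that median was 0.25, and Ezh2 (-1.14), Phf19 (-1.95) and Mtf2 (-1.83) were still called lower and Jarid2 (1.31) higher. Kdm6b was also called higher (0.71, adjusted p = 0.0393), which gives 3 members lower and 2 higher in place of 6 and 1. Eed (-0.58, adjusted p = 0.0713) and Rbbp4 (-0.22, adjusted p = 0.344) were not, and Suz12 turned to 0.44 (adjusted p = 0.0545). The 20 most abundant genes took 18.3% to 22.6% of the total in GC-PB and 9.88% to 11.0% elsewhere. With median ratios, 2093 genes were called higher and 1950 lower in GC-PB than in Fraction 1, in place of 1573 and 2491 at equal totals. Against DZ these counts were 1973 and 1767 in place of 1405 and 2612, and for Fraction 1 against Fraction 2 they were 550 and 395 in place of 424 and 587.

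Ezh2 is known to be switched on in cycling cells, so its level was set beside cell cycle genes. Mki67, a mark of cycling cells, averaged 37.4 in DZ, 35.0 in Fraction 3, 31.0 in Fraction 2, 9.72 in Fraction 1 and 13.2 in GC-PB. At equal totals it fell between Fraction 2 and Fraction 1 (-1.60, adjusted p = 1.06e-06; as deposited -0.23, adjusted p = 0.361), where the difference of Ezh2 was not called. Between Fraction 1 and GC-PB, Mki67 was 0.41 higher (adjusted p = 0.0368, libraries overlapping, and -0.24 as deposited), where Ezh2 fell. Mki67 was among the 2 of 18 mitosis genes called higher there, while 6 were called lower (14.1% and 22.3% of all tested genes). Top2a, another mitosis gene, averaged 44.8% of its DZ mean in Fraction 1 and 33.4% in GC-PB. The ratio of Ezh2 to Mki67 within a library was 0.180 to 0.306 in DZ, 0.248 to 0.268 in Fraction 3, 0.343 to 0.380 in Fraction 2, 0.750 to 1.08 in Fraction 1 and 0.0638 to 0.150 in GC-PB. This ratio needs no scaling, and its highest group was Fraction 1 and its lowest GC-PB. The ratio of Ezh2 to Top2a was also highest in Fraction 1 (0.589 to 0.768). Its GC-PB range (0.0968 to 0.24) overlapped that of DZ (0.231 to 0.432).

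**Figure D4:**
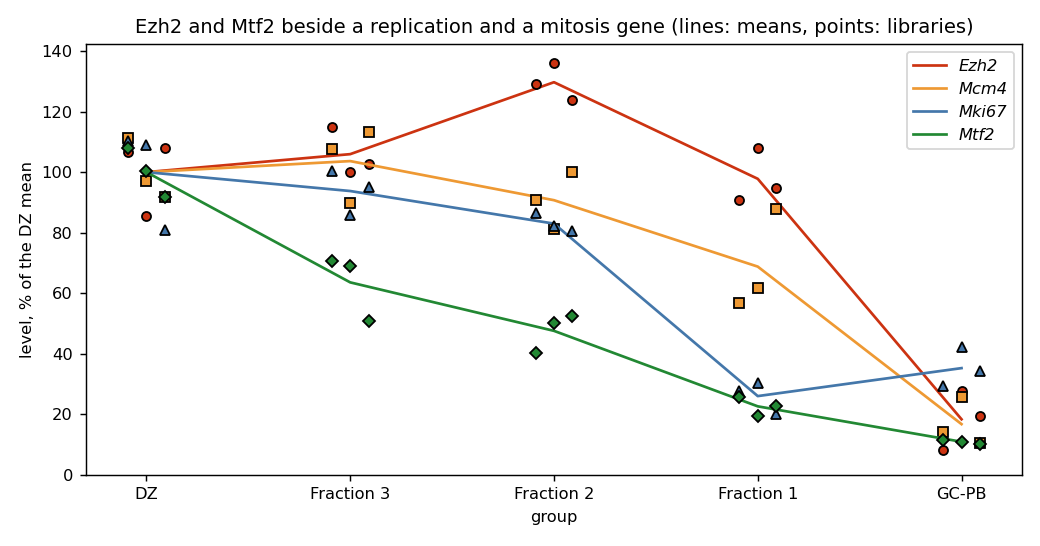
Level of Ezh2 (circles), Mcm4 (squares), Mki67 (triangles) and Mtf2 (diamonds) at equal library totals as a percent of the DZ mean (vertical axis, from 0) by group; lines join group means and points are the 3 libraries. In Fraction 1 the mean of Ezh2 is 97.8% and that of Mki67 26.0%, and in GC-PB they are 18.3% and 35.2%.

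Of 18 mitosis genes, 11 fell and none rose between Fraction 2 and Fraction 1 at equal totals, where 5.25% of all tested genes were called lower. Their median was -0.85 beside -0.04 over all tested genes, and Mki67, Cenpe, Top2a and Ube2c led the calls. As deposited none fell and 5 rose, so this direction depends on the scale. With median ratios 9 fell and none rose. Between Fraction 1 and GC-PB 6 fell, among them Ccna2 (-0.87, adjusted p = 0.000254), and 2 rose (median -0.29). Over all tested genes 22.3% were called lower and 14.1% higher there. The mitosis counts were 14 and 0 as deposited and 3 and 2 with median ratios. Of 20 DNA replication genes 11 fell and 1 rose between Fraction 1 and GC-PB (median -0.83), where Ezh2 fell. Mcm4 went from 6.84 to 1.66, Mcm2 from 9.34 to 2.68 and Mcm3 from 11.6 to 2.52. As deposited 16 of these 20 fell, and with median ratios 10. Between Fraction 2 and Fraction 1, where Ezh2 was not called, 4 replication genes fell and none rose (median -0.42), while as deposited 11 rose. In GC-PB against DZ, which crosses the divide, the mitosis and replication lists had the same median, -1.14, with 16 and 13 genes lower. Over all tested genes 23.3% were called lower there. As deposited 3 mitosis genes fell and 2 rose (median -0.36), and 6 replication genes fell and none rose (median -0.31). The ratio of Ezh2 to Mcm4 within a library, 0.5 to 1.6 in GC-PB and 0.757 to 1.51 elsewhere, overlapped between GC-PB and every other group. In GC-PB it rests on only 3, 12 and 8 estimated molecules of Ezh2, so the overlap cannot show whether Ezh2 and Mcm4 changed alike. Of 13 E2F and Rb family genes, 4 fell and 2 rose between Fraction 1 and GC-PB (median -0.22), close to the 22.3% lower and 14.1% higher over all tested genes. E2f4 fell (-1.21, adjusted p = 2.78e-05), and Rb1, a repressor of E2F targets, rose from 0.393 to 2.59 (1.35, adjusted p = 9.8e-05).

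The genes of other Polycomb and chromatin complexes gave a wider setting. PRC1, the complex that ubiquitinates histone H2A and binds the mark PRC2 makes, had 24 of 26 listed genes tested. Between Fraction 1 and GC-PB 8 fell and 4 rose (median -0.15). Usp7 (9.37 to 2.74), Phc2 (3.30 to 0.553), Pcgf6 (2.71 to 0.359) and Rybp (2.38 to 0.212) fell. Among those that rose were Bmi1 (1.17) and Cbx8 (0.71). Over all tested genes in this comparison 22.3% were lower and 14.1% higher, so these counts are close to the background.

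Among 23 tested genes of the other complexes that hold Rbbp4, 10 fell and none rose between Fraction 1 and GC-PB (median -0.44). They included the nucleosome remodelling subunits Chd4 (13.9 to 3.91), Hdac1 (7.12 to 1.75) and Mta1 (4.04 to 0.457). Over all tested genes 22.3% were called lower and 14.1% higher there. With median ratios 8 of the 23 fell (median -0.28), and as deposited 18 fell (median -0.99). Mbd2, which binds methylated DNA, ran down in steps like Mtf2, from 36.6 in DZ to 23.4 in Fraction 3, 15.6 in Fraction 2, 6.99 in Fraction 1 and 5.55 in GC-PB. It fell between Fraction 2 and DZ (-1.18, adjusted p = 2.11e-06), as did Bptf (-1.09, adjusted p = 0.000499), a remodeller subunit that lost its call as deposited (adjusted p = 0.0825).

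Lists of other histone and DNA methylation genes were compared between Fraction 1 and GC-PB, where 22.3% of all tested genes were called lower and 14.1% higher. Of 10 tested H3K9 and other histone methyltransferases 6 fell and none rose (median -0.56), with Setd2 from 2.86 to 0.974; with median ratios 3 fell. Of 12 genes of the H2A deubiquitinase and the H3K4 methyltransferases 4 fell and none rose (median -0.43), with Paxip1 from 2.64 to 0.662. Of 7 DNA methylation genes 3 fell and none rose (median -0.44), with Uhrf1, which guides maintenance methylation, from 7.85 to 1.49. Of 12 other JmjC demethylases only Kdm2a fell, from 4.17 to 2.35, and none rose (median 0.02), whereas with median ratios none fell and 2 rose.

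A list of genes of cell cycle arrest, plasma cell fate and germinal centre exit, several of them known targets of Ezh2, had 11 of 12 members tested. Between Fraction 1 and GC-PB 5 rose and 2 fell (median 0.50), where 14.1% of all tested genes were called higher and 22.3% lower. GC-PB were sorted as plasmablasts, so high plasma cell genes such as Prdm1 describe the sorted state. Prdm1, the regulator of plasma cell fate, went from 0.0392 to 7.22 (2.95), Klf2 from 0.686 to 8.81 (2.44) and Irf4 from 5.44 to 15.3 (1.34). The other 2 that rose were the cell cycle inhibitors Cdkn1a (0.50) and Cdkn1b (0.72). Cd40 and Slamf1, genes of the dialogue with T cells, fell (-2.94 and -2.58), so the list did not move one way. Cd40 had risen from 0.647 in DZ to 4.41 in Fraction 2 (1.73) and was 8.25 in Fraction 1, across the divide. Whether these genes moved with Ezh2 was not tested. No histone mark was measured.

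The genes most like Ezh2 over the 15 libraries, among 5594 genes at or above the median level, were Tuba1b (r = 0.99), a tubulin, Slc25a3 (0.98), a mitochondrial phosphate carrier, Rps12 (0.98), a ribosomal protein, and Cks2 (0.98), a cell cycle kinase subunit. Tuba1b averaged 48.8, 56.4, 70.7, 49.7 and 13.0 from DZ through Fractions 3, 2 and 1 to GC-PB, the same order of levels as Ezh2 apart from DZ and Fraction 1. For Kdm6b they were Mphosph10 (r = 0.89), Tomm6 (0.88), Pes1 (0.86) and Aven (0.85), all highest in Fraction 1. For Ezh1 the closest was Wrnip1 (r = 0.79), followed by Ccnl2 (0.74), Timmdc1 (0.67) and Agps (0.63). Likeness across libraries of 5 groups mostly repeats the differences between group means.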

How the data were processed

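One table of the series was used, with a signal value for each gene in each of 15 libraries. Its unit is not stated. Per the labels' protocols, cDNA was primed with oligo dT carrying molecular barcodes, ERCC RNA was added in equal amount to each tube, and cDNA was made by template switching and PCR. TopHat2 and the build mm10 come from the submitters' processing notes, and the counting and scaling that gave the deposited signal are not given in the sources used here. Between 91.0% and 92.6% of the values above 0 in a library were whole multiples of 1 constant (tolerance 0.02 of a multiple). These multiples, called estimated molecules, were used for description and for the floor of 3 molecules, and no count test was run because too few were whole.

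Each library was divided by its total without the ribosomal RNA gene Rn45s and multiplied by the median total. Genes above 0 in at least 3 libraries were tested, 11190 of 23420. limma 3.58.1 in R 4.3.3 (trend, moderated) was fitted to log2(level + 1) with 5 group means over all 15 libraries, and p-values were Benjamini-Hochberg adjusted over all tested genes. A call is an adjusted p under 0.05. Log2 differences are on the log2(level + 1) scale, which understates changes of low genes. Fold values are ratios of group means. The script was tested on simulated data. Alternatives were the values as deposited, median ratios, a pseudocount of 0.5, a filter of above 0 in 1 library, fits of only the groups compared, replicate number as a block, and leaving out each library.

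Members and lists were chosen with earlier results of these data known. All 9 members are named. From other lists, up to 4 called genes with the smallest p in the comparison are named, with Kdm6a, Rbbp7, Phf1 and Aebp2 for shared complexes. Mbd2, Bptf, Bmi1, Cbx8, Uty and the genes of counts of 5 or fewer given in full were singled out after their values were seen. Phf1 had no called difference in the 6 comparisons. Promoters are from RefSeq, and gene positions are from GENCODE on mm10.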

Additional observations from a re-analysis of the deposited data

How the results depend on the processing

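The count of members called by the F test was 8 under every alternative, and the counts of members called in either direction for Fraction 2 against DZ, GC-PB against Fraction 1 and GC-PB against DZ stayed within 1.5 times of the reported ones. By direction, GC-PB against DZ went from 6 lower and 1 higher to 3 lower and 2 higher as deposited. Fraction 3 against DZ had 0 calls as deposited, with median ratios, with a pseudocount of 0.5 and with the replicate block, and 0 to 1 when 1 library was left out. Fraction 2 against Fraction 3 had 1 call when only those groups were fitted. Fraction 1 against Fraction 2 had 5 calls as deposited, all higher. The causes were not tested. The replicate block changed no other call than Mtf2 between Fraction 3 and DZ (-0.63, adjusted p = 0.0626). The numbers do not pair the libraries: same-numbered libraries of different groups had a median correlation of 0.00368 in their deviations from group means (30 pairs, none over 0.1), and 3 of 15 libraries correlated best with their own number.

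Of 54 single-gene differences, 32 kept direction and call as deposited, 48 with median ratios, 53 with a pseudocount of 0.5, 53 with the block, 49 with only the groups compared and 54 with the looser filter. Leaving out a library kept 281 of 324. As deposited the sign turned for Fraction 2 against Fraction 3 in Ezh1 (0.088), Eed (0.36), Suz12 (0.14) and Mtf2 (0.0094), and for Fraction 2 against DZ in Ezh1 (0.021) and Rbbp4 (0.24). It also turned for Fraction 1 against Fraction 2 in Ezh1 (0.51), Ezh2 (0.98), Suz12 (1.14), Rbbp4 (1.14), Jarid2 (0.34) and Mtf2 (0.35), for GC-PB against Fraction 1 in Ezh1 (-0.20), and for GC-PB against DZ in Ezh1 (0.33) and Suz12 (0.44). With median ratios it turned for Rbbp4 between Fraction 2 and Fraction 3 (-0.019) and Ezh1 between GC-PB and DZ (0.051).

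Leaving out 1 library turned the sign of differences that were not called. For Fraction 3 against DZ the ranges were -0.19 to 0.23 (Ezh1), -0.019 to 0.13 (Ezh2), -0.17 to 0.013 (Rbbp4) and -0.20 to 0.0040 (Jarid2). For Fraction 2 against Fraction 3 they were -0.33 to 0.094 (Ezh1), -0.083 to 0.077 (Eed) and -0.10 to 0.077 (Rbbp4). For Fraction 2 against DZ they were -0.21 to 0.070 (Ezh1), -0.14 to 0.016 (Rbbp4) and -0.052 to 0.23 (Jarid2). For Fraction 1 against Fraction 2 they were -0.23 to 0.13 (Ezh1) and -0.043 to 0.14 (Eed). Ezh1 ranged from -0.13 to 0.23 for GC-PB against Fraction 1 and from -0.21 to 0.069 for GC-PB against DZ. With 0 to 20 estimated molecules per library for Ezh1, Kdm6b, Jarid2 in GC-PB and Phf19 in Fraction 1, depth limits what can be seen for these genes.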
